A study of Homo sapiens and Mus musculus with 12 samples.

Results

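The genes described here are the core of the BCL2 family, the proteins that decide at the mitochondrial outer membrane whether a cell lives or dies. The members were chosen by name: BCL2, BCL2L1, MCL1, BCL2A1, BCL2L11, BBC3, PMAIP1, BID, BAX and BAK1 in human cells and their mouse counterparts, with the mouse BCL2A1 gene present as the copies Bcl2a1a, Bcl2a1b and Bcl2a1d. They make up 22 of the 40325 gene rows of the series, 10 of 18304 human rows and 12 of 22021 mouse rows. RNA-seq was performed in 4 groups of 3 libraries. Mouse libraries came from sorted splenic NK cells of Ehmt2 flox/flox mice (WT) and of Ehmt2 flox/flox mice carrying Ncr1-iCre (KO), both on a C57BL/6J background and matched for age and sex as adults. Ncr1 encodes NKp46, so the Cre recombinase acts in cells that express this receptor and both groups carry the floxed allele. The samples titled as EHMT2 knockouts carry an Ezh2-KO genotype entry in their labels, and they are called KO here after their titles. Human libraries came from NK92MI, an NK lymphoma line that makes its own interleukin-2, treated with BIX-01294 (BIX), an inhibitor of the histone H3 lysine 9 methyltransferase EHMT2, or with the solvent DMSO. The sample labels give neither dose nor time for this treatment, though the paper's supplement states both for its NK92MI assays. NK92MI is 1 line. The DMSO columns are named as controls and are called control library 1 to 3. Nothing in the labels says that libraries of a group came from separate animals or cultures, so p-values measure the spread between these libraries.

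BCL2 family proteins fall into roles. The guardians BCL2, BCL2L1 (BCL-XL), MCL1 and BCL2A1 (A1) hold their death-promoting relatives in check. The BH3-only proteins BCL2L11 (BIM), BBC3 (PUMA), PMAIP1 (NOXA) and BID carry stress signals to the guardians or to the effectors, and the effectors BAX and BAK1 open the outer membrane so that cytochrome c escapes and caspases are switched on. NK cells depend on interleukin-15 for survival, MCL1 is required for their persistence, and NOXA binds chiefly MCL1 and A1.

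Levels are given as CPM, the count of a gene scaled to a common library size, after TMM scaling, which corrects library totals for composition. The mouse and human tables were scaled separately. Library totals ran from 25891680 counts in WT replicate 2 to 37438868 in the mouse data and from 16579469 to 17165446 in the human data. All 12 mouse rows and 9 of 10 human rows passed the filter on low counts. Calls rest on edgeR's quasi-likelihood test and need a p under 0.05 after Benjamini-Hochberg adjustment across every gene tested in that species. Ehmt2 itself was at 171, 143 and 137 CPM in KO replicates 1 to 3 against 275, 284 and 285 CPM in WT, a log2 fold change of −0.91 ± 0.10 (SE, adjusted p = 0.0162). EHMT2 was also lower with BIX, by a log2 fold change of −0.58 ± 0.08 (adjusted p = 0.0001014). The mouse libraries differed in markers of other spleen cells. The summed level of 12 macrophage and monocyte markers was 2576, 1410 and 1966 CPM in KO replicates 1 to 3 and 7048, 2654 and 5152 CPM in WT, and that of 11 NK markers was 9726, 11439 and 11320 CPM in KO and 5106, 8720 and 5404 CPM in WT. Summed markers were also lower in KO for B cells (35.8 to 410.3 against 444.7 to 1342 CPM, with 0 of 8 markers called). Dendritic cell sums were 152.7 to 281 CPM in KO and 341 to 561 CPM in WT, with 1 of 6 called. Erythroid sums were 91.7 to 121 CPM in KO and 191 to 299 CPM in WT, with 6 of 6 called. T cell sums overlapped, at 140.7 to 244.6 CPM in KO and 180.6 to 274.2 CPM in WT. Of the T cell markers 5 were lower and 3 higher in KO, with 2 called higher. Neutrophil sums were 14.2 to 105 CPM in KO and 95.4 to 948 CPM in WT, with all 8 tested markers lower and 2 called. WT replicate 2 stood apart from the other WT libraries and nearer to KO in the macrophage and NK sums. In NK92MI all 12 NK markers were listed, with sums of 6423 to 6927 CPM in controls and 8111 to 10221 CPM with BIX, and 7 were called higher and 4 lower. The 7 listed markers of other blood cells summed to 489.9 to 507.7 CPM in controls and 522 to 597.1 CPM with BIX, nearly all of it CD3E, and their part in the BIX results was not tested.

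In NK92MI cells exposed to BIX, MCL1, PMAIP1, BCL2 and BCL2L1 rose, and no member was called lower. Both RefSeq promoter windows of BCL2L1 are shown because this gene rose and has more than 1 annotated start. Of the 10 human members, 9 were matched by symbol in the RefSeq promoter table (GRCh38.p14), and MCL1 was not. The windows lie mostly upstream of a transcription start. The BCL2L1 windows are chr20:31723914-31724213 and chr20:31722819-31723118, both on the minus strand. Capitals mark the single match to the GC box GGGCGG, here on the opposite strand.
BCL2L1 first window: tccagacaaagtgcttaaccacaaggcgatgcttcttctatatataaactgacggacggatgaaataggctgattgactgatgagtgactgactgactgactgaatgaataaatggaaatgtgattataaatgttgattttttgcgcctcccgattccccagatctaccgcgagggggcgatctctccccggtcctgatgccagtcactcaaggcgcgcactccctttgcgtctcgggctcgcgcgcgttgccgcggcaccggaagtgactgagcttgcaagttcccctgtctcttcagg
BCL2L1 second window: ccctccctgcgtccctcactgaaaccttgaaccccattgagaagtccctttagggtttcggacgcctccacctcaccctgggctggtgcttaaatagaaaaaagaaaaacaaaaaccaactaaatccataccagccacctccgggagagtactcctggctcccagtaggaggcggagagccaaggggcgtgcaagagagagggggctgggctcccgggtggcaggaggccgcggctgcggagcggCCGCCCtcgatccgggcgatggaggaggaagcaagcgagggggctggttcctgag
These windows held 20 and 16 CpG dinucleotides, against a median of 14 over 34796 promoter windows. The first held no match to any motif searched. The PMAIP1 window held 4 GC boxes and 42 CpG, more CpG than 94.1% of all windows, and the BCL2 window held 31 CpG and no motif match. Windows of tested members that were not called held such features too. BCL2L11 had 3 GC boxes and 39 CpG, BAX 2 and 38, BAK1 2 and 7, and BBC3 0 and 5. The 5 BID windows held 6 to 37 CpG and up to 4 GC boxes. The motifs were GGGCGG (in 44.9% of all windows), CCAAT (34.6%), the STAT motif TTCNNNGAA (7.67%), the CRE TGACGTCA (1.84%) and the NF-kB consensus (11.3%), each on both strands. A match describes the letters of the window and says nothing of binding.

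Among the 3 guardians that passed the filter, MCL1 had the largest rise. MCL1 was at 998, 1006 and 984 CPM in BIX replicates 1 to 3 and at 551, 515 and 528 CPM in the control libraries, a 1.88-fold difference (log2 fold change 0.91 ± 0.06 SE, adjusted p = 1.112e-07). The BIX libraries lay close together and far above every control. BCL2, the founding guardian of the family, was at 535, 533 and 473 CPM with BIX and at 346, 328 and 360.4 CPM in controls. The groups did not overlap, and the log2 fold change was 0.57 ± 0.07 (SE, adjusted p = 2.404e-05). BCL2L1 was at 113, 102 and 124 CPM with BIX and at 88.0, 92.6 and 89.2 CPM in controls. Its rise was smaller, with a log2 fold change of 0.33 ± 0.08 (SE, adjusted p = 0.00394), and BIX replicate 2 came nearest to the controls. In GENCODE 44 (GRCh38), MCL1 lies at chr1:150560895-150579738 and BCL2L1 at chr20:31664452-31723989, both on the minus strand. BCL2L1 shares 1735 exon bases with the opposite-strand RNA ABALON, and MCL1 shares 328 with ADAMTSL4-AS1 on its own strand, so reads of these overlaps cannot be assigned with certainty. BCL2A1, a guardian induced by NF-kB in many blood cells, had 14, 9 and 20 counts with BIX and 9, 6 and 5 counts in controls, which was too few to pass the filter. Its BIX libraries, at 0.851, 0.528 and 1.18 CPM, lay above the controls, at 0.523, 0.350 and 0.296 CPM, though by little for BIX replicate 2. With no filter its log2 fold change was 1.12 ± 0.50 (SE, adjusted p = 0.116), above that of MCL1 and not called.

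**Figure D1:**
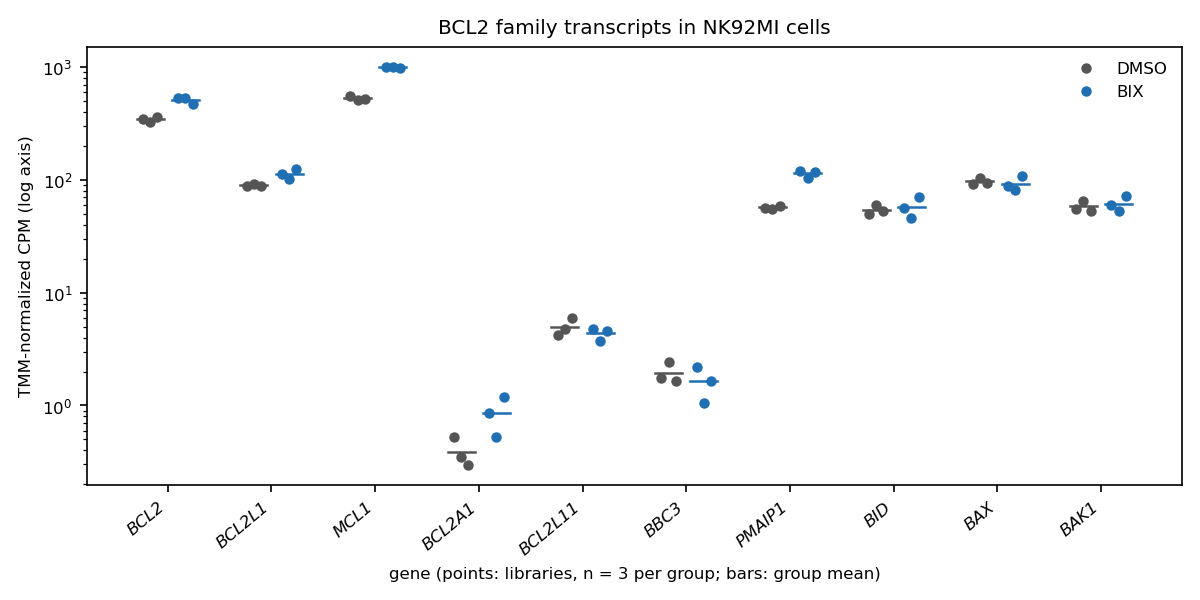
TMM-normalized CPM (log axis) of the 10 BCL2 family genes in NK92MI cells, with 1 point per library (n = 3 per group) and a bar at the group mean. MCL1, BCL2, BCL2L1 and PMAIP1 lie above every control library with BIX, as does the untested BCL2A1 by a small margin (lowest BIX library 0.528, highest control 0.523), while BCL2L11, BBC3, BID, BAX and BAK1 overlap.

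Of the BH3-only genes, PMAIP1 was called, higher with BIX. PMAIP1, whose product NOXA binds MCL1, was at 119.9, 105 and 119 CPM with BIX and at 56.2, 55.7 and 59.2 CPM in controls. Every BIX library was far above every control, and the 2.01-fold difference (log2 fold change 1.005 ± 0.07 SE, adjusted p = 3.422e-07) was greater than that of 97.4% of the genes tested. BCL2L11, which binds all guardians, was at 4.74, 3.76 and 4.60 CPM with BIX and at 4.19, 4.73 and 5.97 CPM in controls, from 64 to 101 counts per library. BBC3, a p53 target, was at 2.19, 1.06 and 1.65 CPM with BIX and at 1.74, 2.45 and 1.65 CPM in controls. Neither passed the test, with 95% intervals of the log2 fold change of −0.59 to 0.23 for BCL2L11 and −0.93 to 0.41 for BBC3, so a sizeable change of BBC3 was not detectable at its 18 to 42 counts. BID, which links death receptors to mitochondria, was at 56.7, 45.8 and 70.7 CPM with BIX and at 50.3, 60.2 and 53.4 CPM in controls. Its BIX libraries spanned the controls on both sides.

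The effectors did not pass the test. BAX was at 87.9, 81.3 and 109 CPM with BIX and at 92.5, 104 and 94.3 CPM in controls. BAK1 was at 59.7, 53.2 and 71.8 CPM with BIX and at 55.7, 65.3 and 53.5 CPM in controls. The 95% intervals of their log2 fold changes ran from −0.27 to 0.14 for BAX and from −0.15 to 0.31 for BAK1. BIX replicate 3 was the highest and BIX replicate 2 the lowest of the BIX libraries for BCL2L1, BID, BAX and BAK1 alike. In all, 4 of 9 tested members were called with BIX, all higher, where 36.9% of all 12727 genes tested were called and 18.4% were called higher. DESeq2 also called 4 members and 35.1% of all genes. At an unadjusted p under 0.05, 4 members passed against 46.1% of all genes. The groups did not overlap for the 4 called genes, all higher with BIX, where 24.1% of all genes were higher and 23.9% lower without overlap, 47.9% in all. The median log2 fold change was 0.08 over the members and −0.01 over all genes.

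The make-up of the family is described by shares and ratios within each library. Family transcripts took 0.194% to 0.196% of all counts with BIX and 0.123% to 0.126% in controls. The count ratio of BAX to BCL2 averaged 0.183 with BIX and 0.282 in controls. That of BCL2L11 to MCL1 averaged 0.00439 and 0.00937, in both cases without overlap between the groups. BCL2 and MCL1, the denominators, were themselves called higher, while BAX and BCL2L11 were not called, so these ratios are no separate result. BCL2L11 to BCL2 averaged 0.00855 with BIX and 0.0144 in controls, and BCL2 to MCL1 0.515 and 0.649, both without overlap. BCL2L1 to BCL2 averaged 0.222 with BIX and 0.261 in controls, and the groups overlapped. The ratio of PMAIP1 to MCL1, chosen after the values were seen, averaged 0.115 with BIX and 0.108 in controls, and the groups overlapped. Per kilobase of exon, MCL1 made up 69.6% to 70.7% of guardian transcripts with BIX and 62.8% to 64.4% in controls. Exon lengths here merge all annotated transcripts of a gene, and the shares depend on that choice. BCL2 made up 16.5% to 18.5% with BIX and 19.8% to 21.2% in controls, although its own level was higher with BIX. Count ratios are not corrected for gene length and are compared only between groups. These ratios and shares were not tested.

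**Figure D2:**
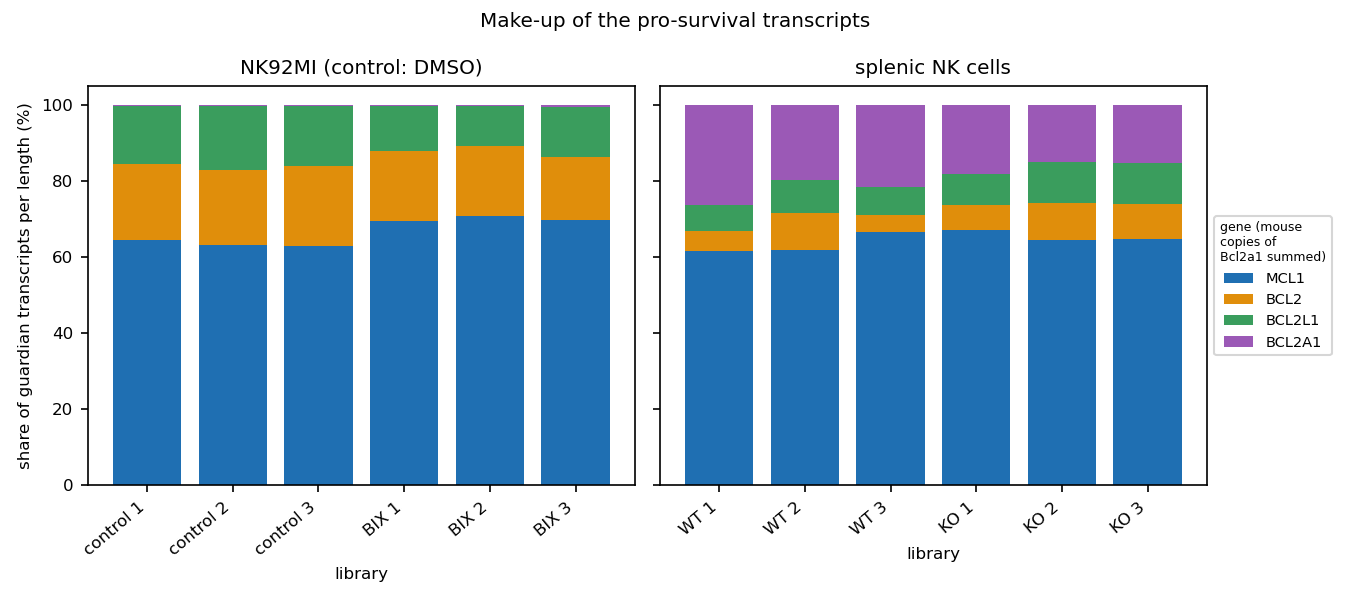
Share (%) of each guardian in the summed CPM per kilobase of exon of the 4 guardians, with 1 bar per library for NK92MI (left) and splenic NK cells (right, Bcl2a1 copies summed). MCL1 is the largest share in all 12 libraries, and BCL2A1 is visible in mouse libraries and under 0.53% in human ones.

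The rest of the death machinery was followed in 6 lists of 57 genes. With BIX, 17 rose and 7 fell of 51 tested, where 18.4% of all genes rose and 18.4% fell. Among IAPs, which restrain caspases, BIRC3 rose from 141 ± 12.9 to 369.7 ± 34.9 CPM (SD, n = 3, log2 fold change 1.39, adjusted p = 7.506e-08 in edgeR) and XIAP rose (0.42, adjusted p = 0.000163), while BIRC5, an IAP tied to cell division, fell (−0.22, adjusted p = 0.0388). Of 14 caspase and apoptosome genes 6 rose and 1 fell, led by CFLAR, the inhibitor of caspase-8 (0.53, adjusted p = 4.08e-05), with APAF1 and CASP8 also higher. Among upstream regulators, DDIT3 (CHOP), a factor of the unfolded protein response, rose by 1.49 (adjusted p = 1.221e-05), and STAT5B, which relays interleukin-2 and interleukin-15 signals, fell by 0.57 (adjusted p = 9.621e-06). Of the survival kinases, PIM2 rose by 0.85 (adjusted p = 7.894e-07) and PIM1 by 0.39 (adjusted p = 0.000308), and JAK1 fell by 0.27 (adjusted p = 0.00315). Among other family members, BNIP3L, a mitophagy receptor, rose by 0.72 (adjusted p = 0.000110) and BCL2L13 fell by 0.59 (adjusted p = 5.515e-05).

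In splenic NK cells, no family member was called between KO and WT. This is 0 of 12 by edgeR, where 11.9% of all 13189 genes tested were called, 4.44% higher and 7.43% lower. At an unadjusted p under 0.05, 4 of 12 members passed against 35.8% of all genes, and DESeq2 called 1 member, Pmaip1, and 23.4% of all genes. The groups did not overlap for 3 members, 1 higher and 2 lower in KO, where 38.5% of all genes did not overlap, 19.1% higher and 19.3% lower.

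Among the mouse guardians, Mcl1 was at 546, 421 and 441 CPM in KO replicates 1 to 3 and 475, 422 and 572 CPM in WT. Its groups overlapped almost fully (95% interval of the log2 fold change −0.40 to 0.28). Bcl2 was at 142, 170.2 and 171 CPM in KO and at 106, 174 and 102 CPM in WT, so WT replicate 2 lay above all 3 KO libraries and the other WT libraries below them. Its log2 fold change was 0.34 ± 0.20 (SE, adjusted p = 0.271). Without WT replicate 2 it was 0.63 (adjusted p = 0.00769), with 26.3% of all genes then called, while without WT replicate 1 it was 0.22 (adjusted p = 0.562) and without WT replicate 3 it was 0.19 (adjusted p = 0.589). Bcl2l1 was at 87.6, 94.1 and 98.1 CPM in KO and at 70.0, 80.8 and 83.9 CPM in WT, a log2 fold change of 0.25 (adjusted p = 0.104), with every KO library above every WT library.

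The Bcl2a1 copies are near-identical and sit together on chromosome 9, so how reads were split between them is uncertain. Bcl2a1d was at 23.6, 15.3 and 14.6 CPM in KO and at 25.4, 21.4 and 29.4 CPM in WT. Bcl2a1a was at 10.2, 6.57 and 8.33 CPM in KO and at 20.6, 8.84 and 12.7 CPM in WT, and Bcl2a1b was below 5 CPM in every library. Summed over the copies, including Bcl2a1c with at most 2 counts a library, the level was 36.7, 24.2 and 25.7 CPM in KO and 50.0, 33.2 and 45.7 CPM in WT, a log2 fold change of −0.57 ± 0.20 (SE, adjusted p = 0.0906). KO replicate 1 lay above WT replicate 2 in this sum.

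**Figure D3:**
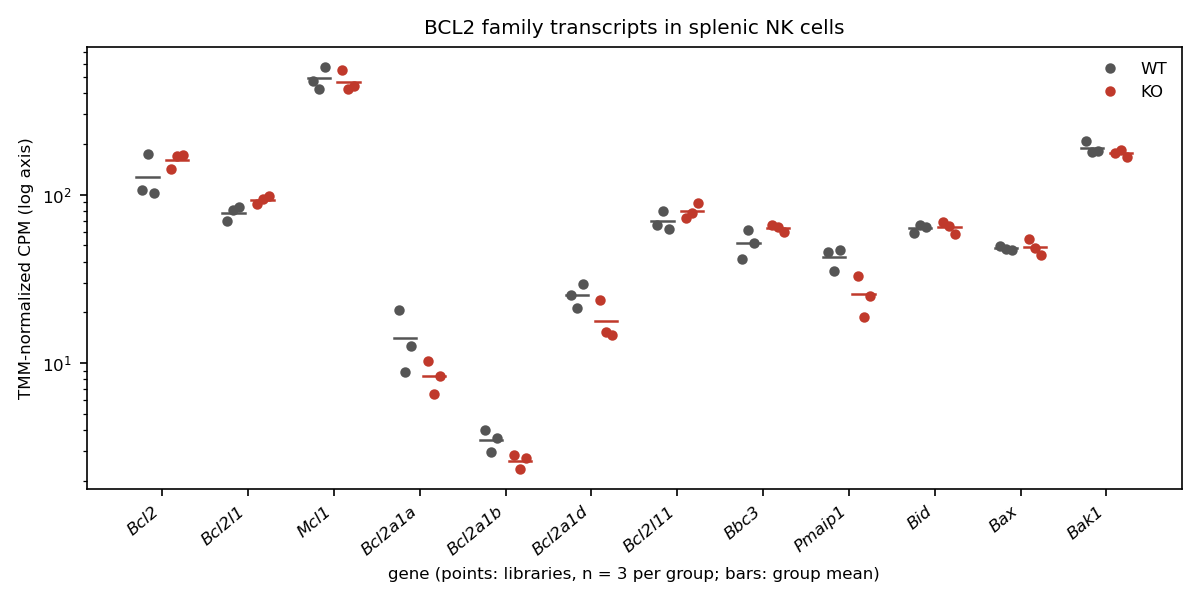
TMM-normalized CPM (log axis) of the 12 BCL2 family rows in splenic NK cells, with 1 point per library (n = 3 per group) and a bar at the group mean. KO and WT points overlap for 9 rows, Bcl2l1 lies higher in KO, and Bcl2a1b and Pmaip1 lie lower.

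Pmaip1 came nearest to a call among the mouse members. It was at 33.0, 18.9 and 24.9 CPM in KO and at 45.8, 35.3 and 46.6 CPM in WT, a log2 fold change of −0.73 ± 0.21 (SE, adjusted p = 0.0560). Every KO library was below every WT library. The adjusted p ran from 0.0224 to 0.177 as each library was left out, and it was lowest without WT replicate 2. Bcl2l11 was at 72.9, 77.8 and 89.1 CPM in KO and at 65.7, 80.1 and 62.2 CPM in WT. Bbc3 was at 65.9, 63.9 and 60.4 CPM in KO and at 41.7, 61.5 and 51.8 CPM in WT, with an adjusted p of 0.167 that became 0.0316 without WT replicate 2. Its log2 fold change of 0.30 fell to 0.16 without WT replicate 1 (adjusted p = 0.395). For Bcl2l11 and Bbc3, WT replicate 2 was the highest WT library. Bid was at 69.3, 64.8 and 58.5 CPM in KO and at 58.9, 65.9 and 64.3 CPM in WT. Bid shares 628 exon bases with Bcl2l13 on the other strand, which limits how its reads can be assigned. The effectors overlapped too, with Bax at 54.5, 48.4 and 43.7 CPM in KO and 49.5, 47.5 and 47.0 CPM in WT, and Bak1 at 177, 183 and 167 CPM in KO and 208, 178 and 181 CPM in WT.

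The values of Bcl2 and Pmaip1 can be set beside the marker sums. Bcl2 was lowest in WT replicates 1 and 3, which had the lowest NK marker sums, but highest in WT replicate 2, whose NK sum was below that of every KO library. Pmaip1 was lowest in KO replicates 2 and 3, which had the lowest sums of macrophage and monocyte, B cell and neutrophil markers alike. All 12 macrophage and monocyte markers were lower in KO and 7 were called, all 11 NK markers listed were higher and 6 were called, and no marker was at 0 in all libraries. The part of other cells in the values of Bcl2, Pmaip1 and Bcl2a1 was not tested. In bulk samples, fewer cells of a type and less RNA per cell cannot be told apart. When libraries were scaled to the NK marker counts instead of by TMM, the median gene moved to −0.82 and Pmaip1 to −1.58, and Bcl2, Bcl2l1, Bcl2l11, Bbc3, Bid and Bax turned negative.

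**Figure D4:**
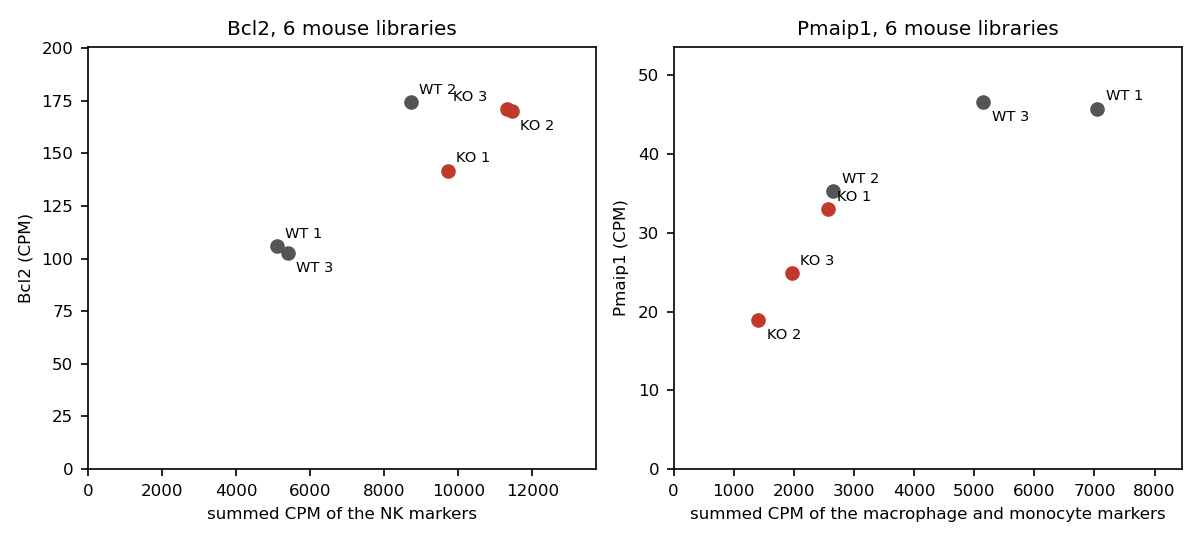
CPM of Bcl2 against the summed CPM of the NK markers (left) and CPM of Pmaip1 against the summed CPM of the macrophage and monocyte markers (right), with 1 point per mouse library. WT replicate 2 lies nearer to the KO libraries than WT replicates 1 and 3 do in both marker sums.

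In mouse libraries the count ratio of Bax to Bcl2 averaged 0.308 in KO and 0.399 in WT, with overlap between the groups. That of Bcl2l11 to Mcl1 averaged 0.173 and 0.146, also with overlap. The groups overlapped too for Bcl2l11 to Bcl2, Bcl2 to Mcl1 and Bcl2l1 to Bcl2. The ratio of Pmaip1 to Mcl1 counts, chosen after the values were seen, did not overlap. It was 0.0604, 0.0448 and 0.0566 in KO and 0.0963, 0.0836 and 0.0815 in WT, and none of these ratios was tested. Of the 54 tested genes in the 6 lists, 1 rose and 3 fell in KO, where 4.44% of all genes rose and 7.43% fell. Birc5 fell by 0.80 on the log2 scale (adjusted p = 0.0327) and E2f1, a cell cycle factor, fell by 0.47 (adjusted p = 0.0452). Jak3, the kinase of the common gamma chain receptors, rose by 0.72 (adjusted p = 0.0279). With NK marker scaling it was at −0.13, where the median gene was at −0.82. Each of the 4 calls was lost without KO replicate 2, KO replicate 3, WT replicate 1 or WT replicate 3, and that of E2f1 also without KO replicate 1.

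The order of levels between genes is given as CPM per kilobase of exon. Lengths merge the exons of all annotated transcripts, for example 12612 bases for BCL2 and 2186 for PMAIP1. The order depends on this choice, and other lengths were not tried. MCL1 led in all 4 groups, at 160.1 ± 1.82 with BIX, 85.3 ± 2.92 in DMSO controls, 137 ± 19.7 in KO and 143 ± 22.2 in WT (SD, n = 3). In controls BAX followed at 37.5, apart from the next genes. BCL2 at 27.3, BAK1 at 26.3 and PMAIP1 at 26.1 overlapped from one neighbour to the next. With BIX, PMAIP1 stood second at 52.4, apart from BCL2 at 40.7 below it. At the low end, BCL2L11, BBC3 and BCL2A1 had means below 1 in both human groups and their ranges overlapped from one neighbour to the next. In mouse cells Bak1 stood second, at 73.0 in KO and 78.5 in WT, and Bcl2l11 was at 9.95 in KO and 8.63 in WT.

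**Figure D5:**
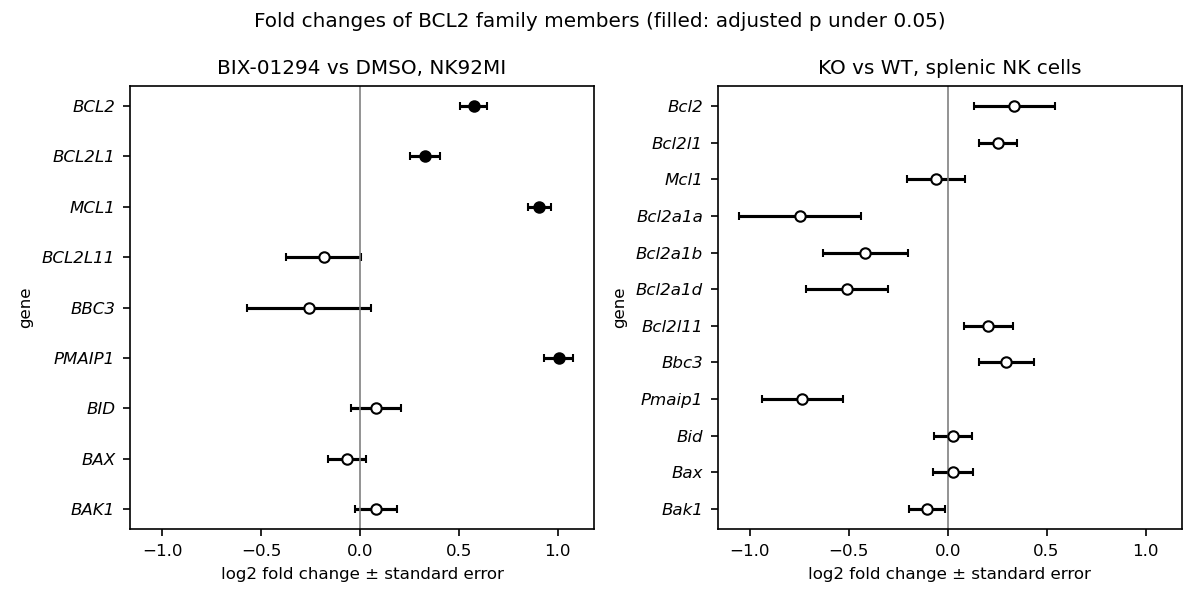
Log2 fold change (error bars: SE) of each tested BCL2 family gene for BIX against DMSO and for KO against WT, with filled points for genes called at adjusted p under 0.05. The 4 filled points are MCL1, PMAIP1, BCL2 and BCL2L1 with BIX, and no mouse point is filled.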

How the data were processed

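RNA was measured in 12 libraries, prepared with the NEB Next Ultra kit. The authors trimmed reads with fastp 0.23.4, aligned them with STAR 2.7.11b to GRCm38 or GRCh38, counted genes with HTSeq 2.0.3 and deposited raw counts per gene, 1 table per species. The strand setting and annotation release are not given in the sources used here. Of the per-sample columns, 0 were unused.

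Counts were analysed in R 4.3.3 with edgeR 4.0.16 (TMM, filterByExpr, quasi-likelihood test, Benjamini-Hochberg adjustment over all genes of a species), without covariates. The script was tested on simulated data. Alternatives used DESeq2 1.42.0 and limma 3.58.1 (voom), other scalings and filters, summed Bcl2a1 copies, a replicate block and each library left out. Exon lengths came from GENCODE 44 and M21, as the merged exons of all annotated transcripts of a gene, and serve only for levels per kilobase.

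All members are named, and for the other lists at most 4 genes with the smallest adjusted p per list and comparison. Some genes that this rule selects are not reported here. The members, lists and tests were chosen with earlier results of these data known. Depth sets the precision of low genes, and counting error is part of the spread between libraries.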

Additional observations from a re-analysis of the deposited data

Results flagged for a closer look

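Pmaip1 and PMAIP1 moved in opposite directions in the 2 comparisons. The log2 fold change of Pmaip1 was −0.73 for KO against WT, where it was not called, and that of PMAIP1 was 1.005 for BIX against DMSO, where it was called. All KO libraries lay below all WT libraries and all BIX libraries above all control libraries. This separation was the rule by which the gene was flagged, so it adds no support. Of all genes tested, 19.3% were lower without overlap in KO and 24.1% were higher without overlap with BIX. The comparisons differ in species, cells and kind of perturbation, and the difference between them was not tested.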

How the results depend on the processing

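MCL1, PMAIP1, BCL2 and BCL2L1 were called higher with BIX in all 12 other fits, with log2 fold changes of 0.88 to 0.93, 0.98 to 1.07, 0.54 to 0.64 and 0.26 to 0.40. BCL2A1 could be tested in 5 alternatives and was called in 1. The study's stricter thresholds for p and fold change were also applied to the edgeR fit. With BIX, the genes called went from 2348 higher and 2344 lower to 794 and 691, with 3 members left (BCL2L1 missed the fold threshold). In KO they went from 585 and 980 to 0 and 0. The paper used these thresholds with DESeq2, a different test, and reported both upregulated and downregulated genes in KO. Under the main cutoff of 0.05 for the adjusted p, DESeq2 called 1098 genes higher and 1989 lower in KO. The size of the change was not limited in these counts, so they do not reflect the stricter thresholds. No filter, DESeq2 and limma-voom each called 1 family member, Pmaip1. Without a filter 623 genes were called higher and 1140 lower of 16465, and with limma-voom 616 and 892 of 13189. With libraries scaled to the NK markers, 34 of 13189 genes were called higher and 8580 lower, and 8 of 12 members were called lower. The log2 fold changes turned to −0.42 for Bcl2, −0.57 for Bcl2l1, −0.60 for Bcl2l11, −0.49 for Bbc3, −0.79 for Bid and −0.80 for Bax. The median gene was at −0.82 in that fit. Relative to the median gene, Bcl2 was at 0.39, Bcl2l1 at 0.24 and Pmaip1 at −0.76, against 0.32, 0.24 and −0.75 in the main fit.

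As each mouse library was left out, 0 to 1433 genes were called higher and 0 to 2097 lower, with the highest counts without WT replicate 2 and none without KO replicate 2 or KO replicate 3. Family members called ranged from 0 to 4, with 4 of 12 (Bcl2, Bcl2a1a, Bbc3 and Pmaip1) without WT replicate 2, where 26.3% of all genes were called. Without KO replicate 1, 2 members (Bcl2a1d and Pmaip1) were called, and 694 genes were called higher and 1338 lower of 13427 tested. The sign of the log2 fold change turned in these fits for Mcl1 (−0.19 to 0.060), Bid (−0.037 to 0.089) and Bax (−0.064 to 0.10), and in the human fits for BID (−0.082 to 0.23), BAX (−0.19 to 0.028) and BAK1 (−0.034 to 0.18). The cause of these changes was not tested.

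With 3 libraries per group, whether the mouse replicate numbers pair the libraries could not be settled. The deviations of same-numbered libraries correlated at 0.354, 0.486 and −0.205, and those of differently numbered libraries at −0.537 to 0.343. A fit with the replicate block called 1292 genes higher and 1930 lower of 13189, and 3 members (Bcl2l1, Bcl2a1a and Pmaip1). For the BIX comparison no paired analysis was possible, because the human control columns carry no replicate numbers that tie them to samples. Depth limited BCL2A1, BBC3 and BCL2L11 in the human data.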
